A study of Mus musculus with 6 samples.

Results

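The 7 genes described here are the metallothionein genes Mt1 and Mt2, the zinc-sensing transcription factor gene Mtf1, and 4 zinc transporter genes, Slc30a1, Slc39a6, Slc39a10 and Slc39a14. They were picked by gene symbol from a deposited table of 28154 mouse genes, and all 7 were found there. The study sequenced RNA of 4T1, an established mouse mammary carcinoma line, in 6 libraries: 3 labelled control and 3 labelled corticosterone-treated. Corticosterone is the main glucocorticoid of rodents. The sources used here give neither dose, time nor vehicle, nor whether the replicates were separate cultures. The p-values therefore set group differences only against the spread between these libraries, and that spread may be technical.

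Zinc is held at a very low free level in cells by proteins that bind it and by transporters that move it. Metallothioneins are small, cysteine-rich proteins that bind zinc and copper. Transporters of the ZIP family (Slc39a genes) bring zinc into the cytosol, and those of the ZnT family (Slc30a genes) take it out, across the plasma membrane or into organelles. When zinc rises, MTF1 binds metal response elements in the promoters of Mt1, Mt2 and Slc30a1 and raises their transcription. In the mouse, glucocorticoids are also known to induce both metallothionein genes, through receptor binding sites upstream of Mt2.

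Mt2 and Mt1 lie side by side on the plus strand of chromosome 8 (GRCm38), Mt2 from 94172664 to 94173568 and Mt1 from 94179082 to 94180327, with 5513 bases and no other gene of the table between them. Their promoter stretches are shown because Mt2 changed under corticosterone and its neighbour did not pass. Each runs from 250 bases before the RefSeq transcript start to 30 bases after it. Mt2 is chr8:94172368-94172647 and Mt1 is chr8:94178839-94179118, both on the plus strand of GRCm38.p6, the C57BL/6J reference and not the sequence of 4T1 cells. Capitals mark matches to the core of the metal response element, TGCACNC or TGCGCNC, on either strand.
Mt2: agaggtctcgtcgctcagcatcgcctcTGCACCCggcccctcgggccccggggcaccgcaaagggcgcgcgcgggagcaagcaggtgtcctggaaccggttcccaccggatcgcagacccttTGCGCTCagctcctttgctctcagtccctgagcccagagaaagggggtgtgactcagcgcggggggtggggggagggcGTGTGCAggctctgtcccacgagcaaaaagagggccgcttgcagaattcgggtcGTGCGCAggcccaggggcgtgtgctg
Mt1: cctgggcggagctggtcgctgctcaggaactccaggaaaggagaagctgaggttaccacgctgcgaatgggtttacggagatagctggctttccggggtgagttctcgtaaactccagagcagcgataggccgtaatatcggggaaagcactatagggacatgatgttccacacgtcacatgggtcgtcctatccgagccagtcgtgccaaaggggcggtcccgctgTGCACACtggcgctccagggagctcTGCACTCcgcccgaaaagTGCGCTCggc

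The Mt2 stretch held 4 matches, and 0.405% of the 32851 RefSeq promoter stretches of this length held as many or more. The Mt1 stretch held 3, as did 1.73% of all stretches or more. For Slc30a1 there was 1 match, 43 to 37 bases before the start, and 24.1% of all stretches held at least 1. Mtf1 and both starts of Slc39a10 had 0 matches. Positions and counts hold for 1 annotated start each of Mt2, Mt1, Slc30a1 and Mtf1. GENCODE M21 also lists transcripts that start beyond the ends of these stretches, Mt2 at 94172664 and 94172860 and Mt1 at 94179211 and 94179241. Bases between the ends of the stretches and those starts were not searched. A match is a run of letters and no evidence of binding, and a window of this length leaves out sites farther away. Of the 7 genes, 5 had a promoter in the RefSeq table.

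**Figure D1:**
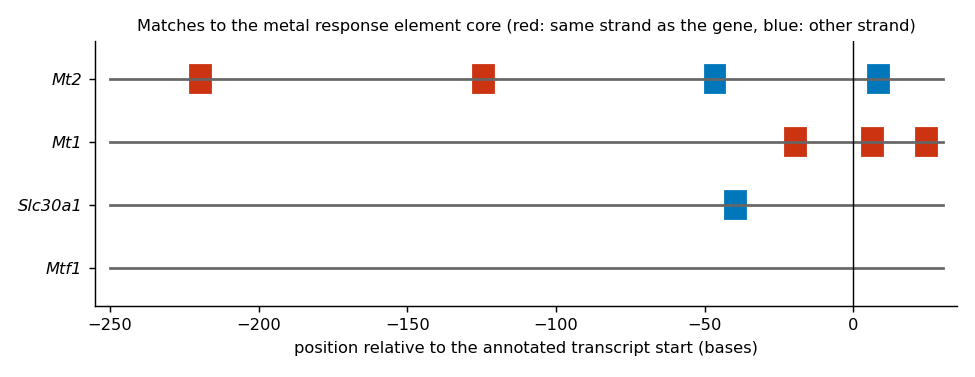
Positions of matches to the metal response element core for 1 annotated start of each gene (boxes of 7 bases; red on the strand of the gene, blue on the other) in the stretch from 250 bases before to 30 bases after the RefSeq transcript start, marked by the vertical line. Mt2 has 4 matches spread along the stretch, Mt1 has 3 that lie near the start, Slc30a1 has 1 and Mtf1 has 0.

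Counts in the deposited table summed to between 62175495 and 66249288 a library. These counts are estimates in which a sequenced fragment is worth about 4, so the totals stand for about 15.5 to 16.6 M fragments. Along the first principal axis of log2 CPM (counts relative to the library's total), which carried 29% of the variance, corticosterone replicate 2 (9.17) lay nearer to the controls (-33.8 to -21.5) than corticosterone replicates 1 (29.65) and 3 (38.48). Results below are given with and without that library where it changes them. The epithelial markers were all present, Krt18 at 662 to 807 FPKM (fragments relative to transcript length and depth) and Epcam at 93.2 to 104 FPKM. Among leukocyte markers Cd3e reached at most 0.0304 FPKM, Ptprc 0.152 to 0.237, Adgre1 0.454 to 0.904 and Itgam 2.21 to 2.82 FPKM. The summed fibroblast and pericyte markers were at 12.3 to 13.8 FPKM in controls and 12.9 to 13.9 FPKM with corticosterone, mostly Col1a1 and Col1a2. The 3 endothelial markers summed to 0.190 to 0.259 FPKM in controls and 0.0901 to 0.108 FPKM with corticosterone, with Kdr at most at 0.0205. Most of that was Pecam1, at 36 to 105 counts a library (log2 fold change -0.999; edgeR adjusted p = 0.106, and called lower by DESeq2). The part of these genes in the results below was not tested.

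Of the 7 genes, 1 rose with corticosterone, Mt2, by 1.98-fold, and 0 fell. Among all 17283 genes with enough counts to be tested, 1.35% rose and 1.46% fell (edgeR quasi-likelihood test, Benjamini-Hochberg adjusted p under 0.05 over all of them). With DESeq2, 2 of the 7 rose, Mt2 and Slc39a14, against 4.21% of tested genes that rose and 4.45% that fell. With limma on log2(FPKM + 1), Mt2 rose among the 6 that could be tested, against 1.82% that rose and 2.43% that fell. All 7 passed the filter on low counts. Each of the 7 had a fold change above 1, with a median log2 fold change of 0.20 against 0.0001 over all tested genes. In 3 of them, Mt2, Slc39a6 and Slc39a14, every treated library was above every control in CPM, which was so for 10.6% of tested genes. The same 3 were higher at an unadjusted p under 0.05 in edgeR, as were 8.23% of tested genes.

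Mt2 encodes one of the 2 metallothioneins that most mouse tissues make. Its level was 12.9, 13.3 and 11.9 FPKM in control replicates 1, 2 and 3 and 20.6, 30.1 and 25.3 FPKM in corticosterone replicates 1, 2 and 3. The groups did not overlap, and the highest library was corticosterone replicate 2, the treated library that was otherwise nearest to the controls. In counts the means were 549 ± 29.3 and 1087 ± 236 (SD, n = 3). The log2 fold change was 0.99 (SE 0.145), a fold of 1.98 with a 95% interval of 1.57 to 2.498 (edgeR, adjusted p = 0.012). Leaving out control replicates 1, 2 or 3 kept the size (log2 fold changes from 0.95 to 1.02) but ended the call, with adjusted p of 0.0643, 0.082 and 0.0695 (edgeR). Without corticosterone replicate 2 the log2 fold change was 0.83 (adjusted p = 0.00232, same test).

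Mt2 overlaps, also in exons, the gene Gm45774 on the opposite strand, and the sources used here do not say whether the libraries keep strand. Gm45774 was listed at 0.196 FPKM in controls and 0.305 FPKM with corticosterone, far under Mt2. No stretch of 75 bases of any Mt2 or Mt1 transcript occurs in a transcript of another gene of GENCODE M21, so no such stretch is shared by the pair.

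Mt1 encodes the other widely made metallothionein. Control replicates 1, 2 and 3 had 19.6, 18.1 and 20.5 FPKM, and corticosterone replicates 1, 2 and 3 had 19.3, 26.5 and 20.6 FPKM. Corticosterone replicate 2 was high, while replicate 1 lay within the range of the controls and replicate 3 just above it, so the groups overlapped. Its log2 fold change was 0.19 (SE 0.131) and missed the threshold (edgeR, adjusted p = 0.519), and the 95% interval ran from a fold of 0.925 to one of 1.40. Without corticosterone replicate 2 the log2 fold change was 0.02.

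The ratio of Mt2 to Mt1 in FPKM compares the neighbours within each library and does not depend on depth, but its level depends on the transcript lengths behind FPKM. It was 0.659, 0.739 and 0.583 in control replicates 1, 2 and 3 and 1.07, 1.14 and 1.23 in corticosterone replicates 1, 2 and 3. Every treated library lay above every control, and the mean went from 0.660 ± 0.0782 to 1.15 ± 0.0800 (SD, n = 3), with a two-sided p of 0.1 by exact permutation, the least that 3 against 3 libraries allow. The ratio was thus 1.74 times as high, and leaving out each library gave log2 ratios between 0.71 and 0.88. In CPM the ratio was 0.276 to 0.349 in controls and 0.505 to 0.580 with corticosterone, so Mt2 had fewer counts than Mt1 in every library. Summed over both genes, the level went from 32.1 ± 0.616 to 47.5 ± 8.50 FPKM (p again 0.1, exact permutation). That sum was 1.48 times as high in FPKM and 1.34 times in CPM. The other metallothionein gene of the table, Mt3, a form of the nervous system, had at most 4 counts in any library and was not tested.

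**Figure D2:**
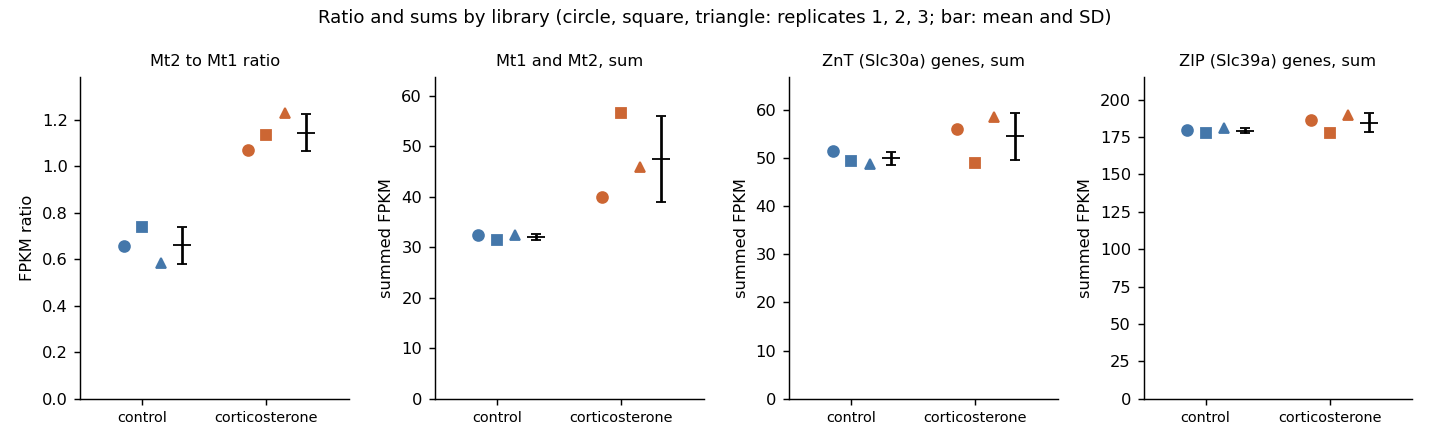
Ratio of Mt2 to Mt1 and summed FPKM of Mt1 and Mt2, of the ZnT (Slc30a) genes and of the ZIP (Slc39a) genes in each library, with the mean and SD of 3 libraries. The FPKM ratio is 0.583 to 0.739 in controls and 1.07 to 1.23 with corticosterone, while the ZnT and ZIP sums of the groups overlap.

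Around the pair, 12 genes with a start within 250 kb of that of Mt2 were tested. Of these, Mt2 and Herpud1 rose, the latter a factor of endoplasmic reticulum associated degradation that starts 213774 bases further on (log2 fold change 0.53; edgeR, adjusted p = 0.00286). The window was drawn around Mt2, so Mt2 itself says nothing about the region. Of all tested genes 1.35% rose. The 10 others did not pass, among them the nearest tested gene beyond Mt1, Nup93, a nuclear pore subunit (log2 fold change 0.04).

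Mtf1 encodes the factor that turns metallothionein and ZnT1 genes on when zinc is high. It was expressed at 1.60, 1.86 and 1.48 FPKM in control replicates 1, 2 and 3 and at 1.87, 1.698 and 2.05 FPKM in corticosterone replicates 1, 2 and 3. The groups overlapped, and the log2 fold change, 0.18 (SE 0.106), missed the threshold (edgeR, adjusted p = 0.441). Mtf1 (chromosome 4, 124802104 to 124849379) shares exonic bases with 1110065P20Rik on the opposite strand.

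Slc30a1 encodes ZnT1, which exports zinc through the plasma membrane and is the ZnT gene best known as a target of MTF1. It was the lowest of the 7, at 0.230, 0.337 and 0.281 FPKM in control replicates 1, 2 and 3 and 0.362, 0.270 and 0.349 FPKM in corticosterone replicates 1, 2 and 3. These levels rest on 87 to 134 counts a library, and the groups overlapped. With an SE of 0.209, the log2 fold change of 0.20 missed the threshold (edgeR, adjusted p = 0.685), and its 95% interval, a fold of 0.822 to 1.60, leaves room for a change in either direction. The gene (chromosome 1, 191906767 to 191913247) overlaps exons of 1700034H15Rik on the opposite strand.

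Slc39a14 encodes ZIP14, which takes up zinc, iron and manganese and is known in the liver as an importer induced by interleukin-6. It was at 7.02, 6.20 and 5.61 FPKM in control replicates 1, 2 and 3. Corticosterone replicates 1, 2 and 3 had 9.98, 7.34 and 11.4 FPKM. The groups did not overlap, but corticosterone replicate 2 was only just above the highest control. The log2 fold change was 0.60 (SE 0.145), a fold of 1.52 with a 95% interval of 1.21 to 1.91, and it missed the threshold (edgeR, adjusted p = 0.0734). It did pass without corticosterone replicate 2 (log2 fold change 0.75; edgeR, adjusted p = 0.00101) and with DESeq2 (0.61; adjusted p = 0.00107). Slc39a14 (chromosome 14, 70303469 to 70351425) overlaps no other annotated gene.

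Slc39a6 and Slc39a10 encode ZIP6 and ZIP10, close relatives that import zinc through the plasma membrane; Slc39a6 is known in human breast cancer as the estrogen-regulated gene LIV-1. Slc39a6 (chromosome 18, 24579881 to 24603817) was at 14.5, 14.1 and 14.8 FPKM in control replicates 1, 2 and 3 and at 16.4, 15.1 and 17.3 FPKM in corticosterone replicates 1, 2 and 3. Every treated library was above every control by a narrow margin, and the log2 fold change, 0.16 (SE 0.062), missed the threshold (edgeR, adjusted p = 0.245). Slc39a10 (chromosome 1, 46807544 to 46888070) was at 22.3, 21.5 and 20.2 FPKM in control replicates 1, 2 and 3. It was at 26.6 and 28.2 FPKM in corticosterone replicates 1 and 3 and at 19.0 FPKM, below all controls, in corticosterone replicate 2. For Slc39a10 a log2 fold change of 0.20 (SE 0.124) missed the threshold (edgeR, adjusted p = 0.461).

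**Figure D3:**
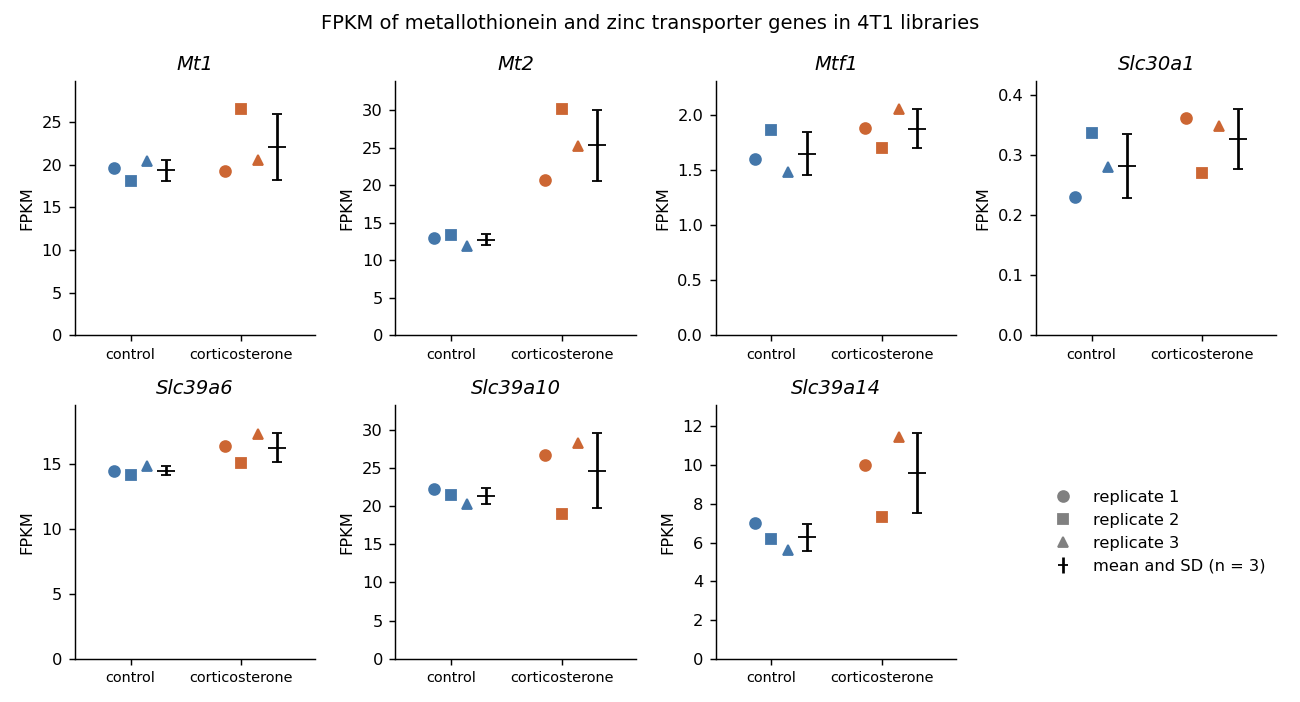
FPKM of each of the 7 genes in every library, by group, with the mean and SD of 3 libraries. The groups separate for Mt2 (11.9 to 13.3 against 20.6 to 30.1 FPKM), Slc39a14 and Slc39a6, and overlap for Mt1, Mtf1, Slc30a1 and Slc39a10.

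Corticosterone replicate 2 was the highest treated library for both metallothioneins and the lowest for the other 5 genes. Many other genes split the same way: in CPM it was the highest of the 3 treated libraries for 42.3% of all tested genes and the lowest for 38.6%. The 7 tested ZnT genes were all lowest there, while of 12 ZIP genes 5 were highest and 5 lowest. Relative to the control mean in log2 CPM, Mt1 and Mt2 were at 0.47 and 1.26 in that library, their highest values of all 6. Slc39a10, Slc39a14, Slc39a6, Slc30a1 and Mtf1 were at -0.14, 0.25, 0.08, -0.04 and 0.07 there, each the lowest of the 3 treated libraries. Without that library 4 of the 7 genes rose, Mt2, Slc39a6 (log2 fold change 0.20), Slc39a10 (0.35) and Slc39a14, but so did 10.5% of 17862 tested genes (edgeR). The same 4 rose in limma-voom with library weights, as did 13.5% of tested genes. That fit kept all 6 libraries but gave corticosterone replicate 2 a weight of 0.228, against 0.725 to 3.266 for the others. It is thus close to a fit without that library. What sets that library apart was not tested.

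**Figure D4:**
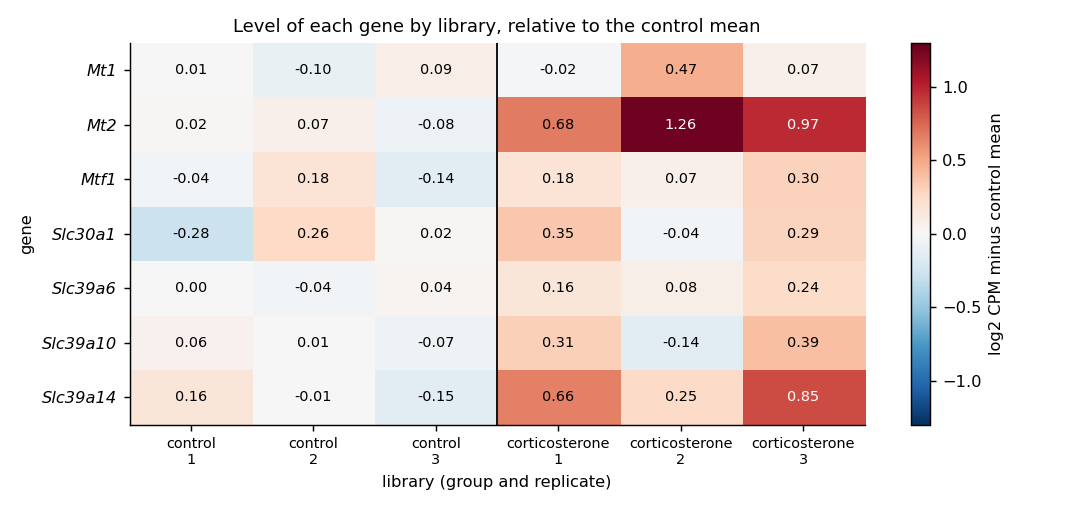
Log2 CPM of each of the 7 genes in each library, minus the mean of the 3 controls (colour and printed value). Corticosterone replicate 2 holds the highest values of Mt1 (0.47) and Mt2 (1.26) and, among treated libraries, the lowest of the other 5 genes.

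FPKM allows levels of different genes to be compared only as far as the transcript length taken for each gene is right. By FPKM, Slc39a10 was highest of the 7 in control cells (21.3 FPKM on average). It was followed by Mt1 (19.4), Slc39a6 (14.5), Mt2 (12.7), Slc39a14 (6.27), Mtf1 (1.64) and Slc30a1 (0.282). The ranges of Slc39a10 and Mt1 overlapped, and those of all lower neighbours did not. With corticosterone the order began with Mt2 (25.3 FPKM), Slc39a10 (24.6) and Mt1 (22.1), whose ranges overlapped from each to the next, and then stayed as in the controls for the 4 others. The first place of Mt2 in FPKM rests on corticosterone replicate 2: without it Slc39a10 (27.4 FPKM) stayed first, before Mt2 (22.9) and Mt1 (19.9). The lengths behind FPKM are not stated in the sources used here. Annotated transcripts are 549 to 1085 bases long for Mt1 and 388 and 511 for Mt2, so the place of Mt1 is uncertain. In CPM, which takes no account of length, Mt1 was above Mt2 in both groups. The means were 27.3 against 8.48 in controls and 31.1 against 16.8 with corticosterone.

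The wider families put these members in context. Of 10 ZnT genes 9 were in the table and 7 could be tested, and edgeR called 0 of them. At an unadjusted p under 0.05 there was 1, where 17% of all tested genes reached that. DESeq2 called 1, Slc30a7, and limma on log2(FPKM + 1) called 0 of the 5 it could test. Without corticosterone replicate 2, Slc30a4 (log2 fold change 0.23; edgeR, adjusted p = 0.00965) and Slc30a7 (0.30; adjusted p = 0.0045) rose, against 10.5% of tested genes that rose and 10% that fell in that fit. The median log2 fold change of the 7 was 0.16. Slc30a4, the mammary exporter whose loss gives the lethal milk mouse, made up 45.0 ± 0.70% of the summed ZnT FPKM in controls and 46.1 ± 0.84% with corticosterone (SD, n = 3). Slc30a4 and Slc30a7 each share exonic bases with a gene on the opposite strand. Slc30a5, which loads zinc into the secretory pathway, held 17.5% in controls and Slc30a9, a mitochondrial zinc transporter, 17.3%, while Slc30a1 held 0.57 ± 0.12%. The log2 fold changes of these 3 more abundant genes were 0.16, 0.09 and -0.03. Slc30a7, a Golgi transporter chosen after its values were seen, reached a log2 fold change of 0.24 and missed the threshold (edgeR, adjusted p = 0.114). The ZnT sum was 49.9 ± 1.42 FPKM in controls and 54.5 ± 4.90 FPKM with corticosterone (SD, n = 3), with a two-sided p of 0.3 in the exact permutation test.

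All 14 ZIP genes were in the table and 12 were tested, with 0 higher, 1 lower and a median log2 fold change of 0.065. Slc39a6, Slc39a10 and Slc39a14 rose, and again 1 fell, without corticosterone replicate 2, against 10.5% and 10% of tested genes. The 1 that fell in the full fit and in that one was Slc39a4, the zinc importer of the gut that is mutated in acrodermatitis enteropathica. It went from 15.01, 16.6 and 16.7 FPKM in control replicates 1, 2 and 3 to 12.5, 12.7 and 10.9 FPKM in corticosterone replicates 1, 2 and 3, with no overlap. The log2 fold change was -0.42 (SE 0.086; edgeR, adjusted p = 0.0421), close to the threshold, and the call was lost with any library but corticosterone replicate 2 left out (adjusted p up to 0.212). With the replicate number as a block it was also lost (adjusted p = 0.0968). The most abundant ZIP genes were Slc39a7, which releases zinc from the endoplasmic reticulum (26.2% of the summed ZIP FPKM in controls, log2 fold change -0.03), and Slc39a1 (21.6%, 0.06). As for the members, Slc39a10, Slc39a6 and Slc39a14 held 11.9, 8.08 and 3.50% in controls and 13.3, 8.79 and 5.17% with corticosterone, while the share of Slc39a4 went from 8.98 ± 0.54% to 6.53 ± 0.74%. Slc39a7 shares exonic bases with Gm20427 on its own strand, so its counts are uncertain. The ZIP sum was 179 ± 1.66 FPKM in controls and 185 ± 6.43 FPKM with corticosterone (SD, n = 3), with a two-sided p of 0.3 in the exact permutation test.

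**Figure D5:**
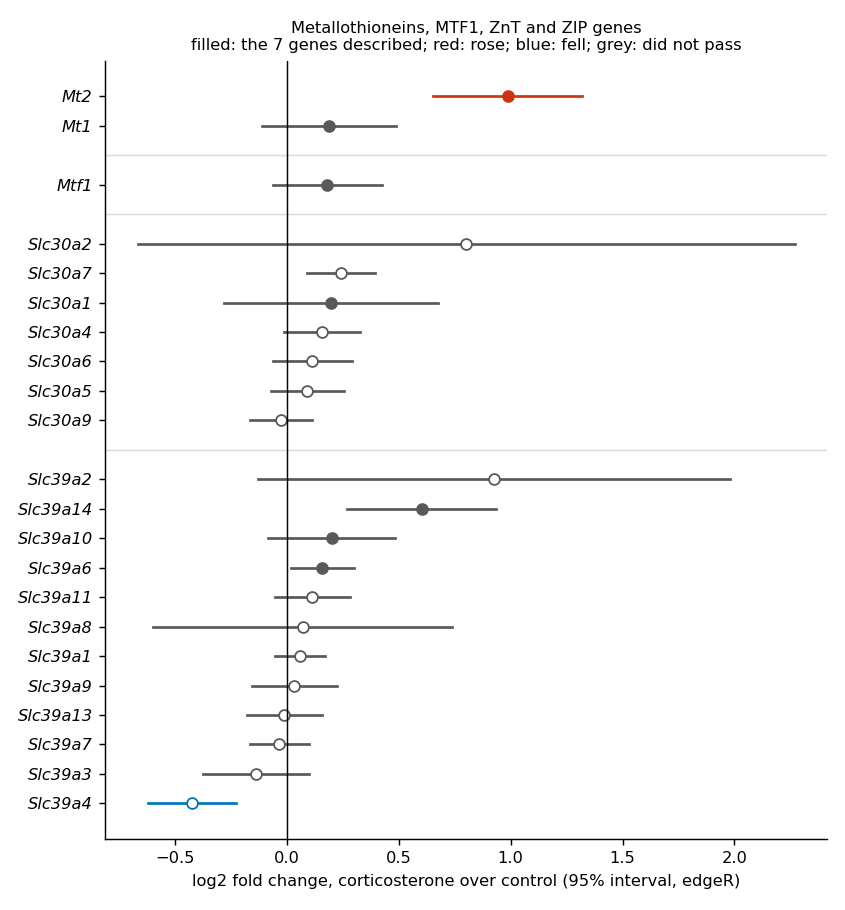
Log2 fold change of corticosterone over control with its 95% interval for the 22 tested metallothionein, Mtf1, ZnT and ZIP genes (filled points are the 7 genes described). Mt2 (0.99) is the 1 gene that rose and Slc39a4 (-0.42) the 1 that fell; the widest intervals belong to genes with few counts such as Slc30a2 and Slc39a2.

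Log2 fold changes of genes reported in the mouse as targets of MTF1, 9 with Mtf1 itself, were above 0 in 8 of 9 cases. Their median was 0.20, against 0.0001 over all tested genes. Mtf1, Mt1, Mt2, Slc30a1 and Slc39a10 are also among the 7 genes above, so these values in part repeat those. The rest were Gclc (0.228), Selenow (0.202), Ndrg1 (0.494) and Csrp1 (-0.304). The list does not say whether MTF1 raises or lowers each gene. Of the 9, 2 rose, 1 fell and 6 did not pass, against 1.35% of all tested genes that rose and 1.46% that fell (edgeR). Gclc and Slc39a10 rose as well without corticosterone replicate 2, a fit in which 10.5% of tested genes rose. Beside Mt2, Ndrg1, a stress-induced gene, rose from 74.3 ± 2.98 to 105 ± 3.04 FPKM (log2 fold change 0.49; edgeR, adjusted p = 0.00359). That call held without each library in turn. Csrp1, a LIM domain protein, fell by 0.30 on the log2 scale (adjusted p = 0.0402 in edgeR), a call lost without any library but corticosterone replicate 2 (adjusted p up to 0.189). Ndrg1 overlaps exons of genes on the opposite strand. Mt2 and Ndrg1 were the list's risen members, while Mt1, Slc30a1 and Slc39a10 were among those that did not pass.

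Among 11 glutathione and antioxidant genes, Slc7a11, the cystine importer, rose from 1.87 ± 0.101 to 3.09 ± 0.543 FPKM (log2 fold change 0.72, adjusted p = 0.0188 in edgeR). Its call was lost without each control library and without corticosterone replicate 1 (adjusted p up to 0.119). The 10 others did not pass, and the most abundant of them were Sod1 (-0.24), Hmox1 (0.32) and Gsr (0.003). Hmox1, the heme-degrading oxygenase, was close to the threshold in edgeR (adjusted p = 0.0579). It rose in DESeq2 (adjusted p = 0.00218) and in limma on log2(FPKM + 1) (adjusted p = 0.0399), and DESeq2 also called Nqo1 lower. Without corticosterone replicate 2, 4 of the list rose (Slc7a11, Hmox1, Gclc and Txnrd1) and 2 fell (Nqo1 and Sod1). In that fit 10.5% of tested genes rose and 10% fell. Of 9 copper handling genes edgeR called 0, with 4 at an unadjusted p under 0.05 (17% of all tested genes). DESeq2 and limma each called 1 (Slc31a2, lower), as they did 4.45% and 2.43% of their tested genes. Without corticosterone replicate 2, 2 rose (Atp7a and Sco1) and 5 fell (Slc31a2, Atox1, Ccs, Cox17 and Commd1), against 10.5% and 10% of tested genes. The median log2 fold change of that list was -0.19. The most abundant copper genes, the chaperones Atox1 (-0.26) and Ccs (-0.23) and the importer Slc31a1 (-0.16), all had negative values.

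Of 15 tested iron and manganese genes, a list that holds Slc39a14, 1 rose, 1 fell and 13 did not pass, with a median log2 fold change of 0.19. Steap3, an endosomal iron reductase, rose from 4.03 ± 0.220 to 5.30 ± 0.104 FPKM (log2 fold change 0.39; edgeR, adjusted p = 0.0255). Slc40a1, the iron exporter ferroportin, fell from 0.775 ± 0.0559 to 0.493 ± 0.0685 FPKM (log2 fold change -0.66; same test, adjusted p = 0.0365). Both calls were lost without any library but corticosterone replicate 2, with adjusted p up to 0.134 and 0.149 (edgeR), and under the replicate block (0.0932 and 0.0625). The most abundant were the ferritin chains Ftl1 (-0.26) and Fth1 (0.29) and the transferrin receptor Tfrc (0.17), which did not pass; Ftl1 shares exonic bases with other genes on both strands. DESeq2 called 3 of this list higher (Steap3, Fth1 and Slc39a14) and 1 lower, against 4.21% and 4.45% of tested genes. With corticosterone replicate 2 left out, 7 rose (Tfrc, Slc11a2, Fth1, Steap3, Ireb2, Ncoa4 and Slc39a14) and 2 fell (Slc40a1 and Ftl1). Over all 66 listed metal genes 58 were tested, of which 4 rose and 3 fell, against 19 and 11 without that library. Of all tested genes, 1.35% rose and 1.46% fell, against 10.5% and 10% without that library (edgeR). Genes named here for their calls without that library or with DESeq2 were chosen after their values were seen.

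The genes whose profile over the 6 libraries was most like that of each metallothionein differed between the pair. Likeness was the root mean square difference of log2 CPM, each gene centred on its mean, over 7439 genes with a mean of at least 5 FPKM. For Mt1 the 5 nearest were Selenow (0.034), Sfn (0.046), Gm43108 (0.048), Thop1 (0.058) and Fbxl15 (0.064). Selenow encodes selenoprotein W and is itself in the list of MTF1 targets. The likeness rests largely on corticosterone replicate 2, where Mt1 was at 0.47 and Selenow at 0.49 in log2 CPM relative to the control mean. Without that library their log2 fold changes were 0.02 and 0.04. For Mt2 they were Sh2d5 (0.129), Dlk2 (0.170), Ccn2 (0.181), Depdc7 (0.181) and S100a7a (0.187). Mt1 varied by 0.184 about its own mean and Mt2 by 0.514, so the distances of the 5 genes are to be read against those values.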

How the data were processed

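The deposited table gives, per the file headers, a count and an FPKM value for each gene and library, with gene coordinates. No source used here names the aligner, the counter, the strandedness or the read length. The submitters' processing notes name GRCh38, but all 28154 identifiers are mouse, and 90.4% of the 28086 found in GENCODE M21 (GRCm38) have identical coordinates. The deposited counts behave as estimated counts made from base coverage: 1064 to 1159 genes a library hold 4 counts against 350 to 386 that hold 5, and in over 98% of genes with 1 transcript the count is proportional to FPKM times length within 1%. They were tested as deposited, being whole numbers, and a fit on counts divided by 4 was added after seeing the data. The deposited FPKM values are the authors' own and are used for levels.

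Groups come from the treatment label and replicate numbers from the titles. Counts were filtered (filterByExpr, minimum count 10, total 15), scaled with TMM factors, and tested by edgeR's quasi-likelihood F test (version 4.0.16, under R 4.3.3), group being the sole term. Genes rose or fell where the Benjamini-Hochberg adjusted p over 17283 genes was under 0.05. Intervals are 95% intervals of that fit, and depth limits them most for genes with few counts. Alternatives were DESeq2 1.42.0, limma 3.58.1, other scalings and filters, the replicate block and each library left out. The tests were checked on simulated data. The plan called the columns counts; they were taken as estimated counts once seen. The members and lists were chosen with earlier results of these data known. Named genes were the 7 members, every gene of a list that passed, its 3 most abundant tested genes and the 5 nearest profiles; others are marked in the text as picked from their values. Mt4 and Slc30a8 are not analysed here. Promoters are from RefSeq (GRCm38.p6).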

Additional observations from a re-analysis of the deposited data

How the results depend on the processing

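The rise of Mt2 kept its direction in every alternative run (log2 fold changes from 0.74 to 1.12), but its call was lost with no low count filter (0.99, adjusted p = 0.0542), in limma on log2(FPKM + 1) with no filter (0.93, adjusted p = 0.057) and without each control library (0.83 to 1.12 over single libraries left out). Without single libraries Slc39a14 gave 0.47 to 0.75, Slc39a10 0.10 to 0.35 and Slc39a6 0.12 to 0.20. Slc39a14 passed with DESeq2 (0.61), and all 3 passed in limma-voom with library weights (0.68, 0.30 and 0.18), which gives corticosterone replicate 2 little weight. Of the 7 genes, 2 rose with DESeq2, 0 with no low count filter, 0 in limma with no filter, 4 with library weights and 0 to 4 without single libraries. Of all listed metal genes, these settings gave 8, 1, 1, 20 and 1 to 19 that rose and 5, 0, 0, 12 and 0 to 11 that fell. Over all tested genes they gave 629, 112, 135, 2340 and 60 to 1884 that rose and 664, 99, 125, 2384 and 28 to 1786 that fell. Dropping the filter adds genes both to the adjustment and to the estimate of spread. The cause of these shifts was not tested. Values near 0 changed sign: Slc30a9 was 0.02 with library weights and ran from -0.05 to 0.03 without single libraries, Slc39a7 ran from -0.06 to 0.01 and Gsr from -0.08 to 0.07. In CPM in place of FPKM the log2 ratio of the ZIP sum was 0.10 against 0.04, and that of the summed Mt1 and Mt2 level 0.42 against 0.56. Slc30a1 lies under the FPKM minimum of limma and could not be tested there. Fits on counts divided by 4, added after seeing the data, and with median ratio size factors changed no call among the 7 genes.

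No pairing by replicate number was seen: same-numbered libraries deviated from their group means with correlations of 0.0106, 0.0379 and -0.0884. These values cannot show whether the cultures were paired, which the sources used here do not state. With the replicate block, 130 genes rose and 107 fell over all tested genes, Mt2 kept its call (0.97, adjusted p = 0.0242), and 0 listed metal genes fell.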
